A study of Mus musculus with 28 samples.

Results

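Genes for the granule and cytosol proteins of neutrophils were followed in whole lungs of newborn mice. The 10 genes were S100a8, S100a9, Mmp8, Mmp9, Retnlg, Ngp, Camp, Ltf, Lcn2 and Olfm4, chosen by name among the 22180 genes measured, and each was read from the single probe set that the platform annotation gives to that symbol alone. All 10 were measured on all 28 arrays, and no filter on low values was applied. The study asked how lungs change without the small GTPases HRas and NRas, and its title reports that the double knockout (DKO) dies of respiratory distress. Lungs were taken at day 0 after birth, with 1 array for each animal. Without treatment there were 5 animals of DKO genotype and 3 each of Control, NRas-KO and HRas-KO. The arm with N-acetyl cysteine (NAC, an antioxidant and glutathione precursor) had 4 animals each of DKO+NAC and Control+NAC and 3 each of NRas-KO+NAC and HRas-KO+NAC. NAC was given at 0.5% to the pregnant mothers, so each newborn was exposed before birth through its mother. No further allele, strain or Cre driver, and no account of which part of either gene was deleted, is given in the sources used here.

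A shared treatment note names only 3 samples as exposed to NAC while the individual labels assign it to 14, and the individual labels were followed. Titles of the 3 HRas-KO+NAC arrays do not mention NAC and their source labels do. Sample titles carry an animal code whose first characters may mark a litter, although the labels do not say so. No code start occurred in both arms, so NAC and code start cannot be told apart. Untreated DKO animals came from 3 code starts that no other group shared, so genotype and code start cannot be told apart there either. Deviations from the group means over all genes correlated at 0.146 on average between arrays of different groups in the same arm that shared a code start (28 pairs), and at -0.035 between those that did not. Arrays that share a code start are thus not fully independent, and the p-values here treat them as independent.

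Neutrophils are short-lived white cells that leave the bone marrow, or the fetal liver before birth, with their granules already filled. Primary granules are filled first, in promyelocytes, and hold myeloperoxidase and serine proteases. Specific granules (lactoferrin, cathelicidin, neutrophilic granule protein, olfactomedin 4, collagenase) and then gelatinase granules follow as the cell matures, while S100A8 and S100A9 fill the cytosol. Transcripts of these proteins are most abundant in maturing cells of the blood-forming organs, and in lung tissue they come largely from neutrophils in vessels and airspaces. Lcn2 and the S100 genes can also be made by epithelium. In bulk tissue fewer cells of a type and less RNA per cell cannot be told apart.

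Labels were checked first. Without NAC the deleted gene Nras averaged 7.63 ± 0.13 (SD, n = 5) on the log2 scale in DKO and 7.69 ± 0.10 (n = 3) in NRas-KO, below Control at 8.24 ± 0.14 (n = 3) and HRas-KO at 8.26 ± 0.13 (n = 3). With NAC the DKO+NAC mean was 7.75 ± 0.23 (n = 4) and the NRas-KO+NAC mean 7.70 ± 0.12 (n = 3), below 8.33 ± 0.12 (n = 4) in Control+NAC and 8.29 ± 0.11 (n = 3) in HRas-KO+NAC. DKO+NAC replicate 4 read 8.08, inside the range of untreated Control (8.07 to 8.35), below the lowest Control+NAC array at 8.21 and above the other 3 DKO+NAC arrays, of which the highest read 7.74. The comparisons that use the array labelled DKO+NAC replicate 4 are therefore given without it too. HRas-KO labels were not checked, and Hras was not analysed here. The lung markers Sftpc, Sftpb and Scgb1a1 averaged 13.11, 12.54 and 12.03 over the 28 arrays, where the largest value in the table was 13.55. Array medians lay between 5.25 and 5.41.

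Upstream sequences are shown for 4 of the 10 genes, S100a8, S100a9, Retnlg and Olfm4, with matches to short sequence patterns marked. The RefSeq promoter table used here, on GRCm38.p6, matched 9 of the 10 genes by symbol, and the 250 bases before the transcription start are printed here 5′ to 3′ on the strand of the gene. S100a8 (chr3:90668821-90669070, plus strand) and S100a9 (chr3:90695722-90695971, minus strand) lie on chromosome 3 with starts 26.65 kb apart. Retnlg (chr16:48872358-48872607, plus strand) lies on chromosome 16 and Olfm4 (chr14:80000052-80000301, plus strand) on chromosome 14. Capitals mark each match, on either strand, to TTNCNNAA, a loose form of the site of C/EBP factors, which drive granule genes, or to GAGGAA, a purine-rich core of sites for PU.1 and related ETS factors.
S100a8: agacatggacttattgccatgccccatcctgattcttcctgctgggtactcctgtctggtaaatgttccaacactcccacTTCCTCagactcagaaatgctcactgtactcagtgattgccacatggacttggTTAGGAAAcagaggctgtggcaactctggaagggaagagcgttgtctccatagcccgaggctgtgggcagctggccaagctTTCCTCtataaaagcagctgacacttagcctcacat
S100a9: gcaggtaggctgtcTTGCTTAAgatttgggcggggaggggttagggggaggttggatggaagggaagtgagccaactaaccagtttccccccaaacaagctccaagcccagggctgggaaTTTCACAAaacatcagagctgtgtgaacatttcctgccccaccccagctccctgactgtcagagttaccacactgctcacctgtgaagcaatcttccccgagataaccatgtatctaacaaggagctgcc
Retnlg: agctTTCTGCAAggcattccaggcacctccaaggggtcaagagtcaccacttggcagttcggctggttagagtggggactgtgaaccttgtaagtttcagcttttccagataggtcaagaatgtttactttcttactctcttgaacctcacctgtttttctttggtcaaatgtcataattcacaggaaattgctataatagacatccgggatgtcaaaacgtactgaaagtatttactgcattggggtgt
Olfm4: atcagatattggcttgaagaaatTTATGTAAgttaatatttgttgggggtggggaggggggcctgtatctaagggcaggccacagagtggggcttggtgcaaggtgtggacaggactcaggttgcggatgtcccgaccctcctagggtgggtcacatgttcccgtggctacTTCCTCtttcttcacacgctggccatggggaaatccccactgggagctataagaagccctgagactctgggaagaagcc

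TTNCNNAA occurred upstream of 8 of the 9 genes with a sequence, against 36.8% of all 32851 promoters searched over the same length. GAGGAA occurred in 5 of 9, against 23.3%, and both occurred together in 5 of 9, against 8.87%. No match of one motif overlapped a match of the other. S100a8 and Olfm4 held both motifs, whereas S100a9 and Retnlg held TTNCNNAA alone and Camp held neither. A match is a description of letters, and binding was not measured here. Ltf, Ngp and Camp are neighbours at a larger scale on chromosome 9, with starts 599.484 kb apart for Ltf and Ngp and 570.352 kb apart for Ngp and Camp, and Mmp8 lies elsewhere on that chromosome.

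Each of the 10 genes varied more between animals of 1 group than most genes did. Their within-group SD ran from 0.34 for Lcn2 to 0.62 for Ngp, while the median gene had 0.17, and at least 96.0% of all genes had a smaller SD than each of them. Olfm4, a glycoprotein of a subset of specific granules, spanned 2.72 log2 units over the 28 arrays, a 6.59-fold range. Retnlg, a resistin-like protein secreted by neutrophils, spanned a 5.54-fold range, and Camp, the cathelicidin precursor, the narrowest at 2.74-fold. The share of variance that lay between the 8 groups was highest for Olfm4 (57.0%), S100a9 (49.2%), Retnlg (48.8%), Lcn2 (41.9%) and Mmp9 (39.8%). Below the median of 37.6% over all genes lay Ltf (28.4%), Mmp8 (25.8%), S100a8 (24.3%), Ngp (19.7%) and Camp (12.4%). Camp averaged 4.66, under the median of every array.

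**Figure D1:**
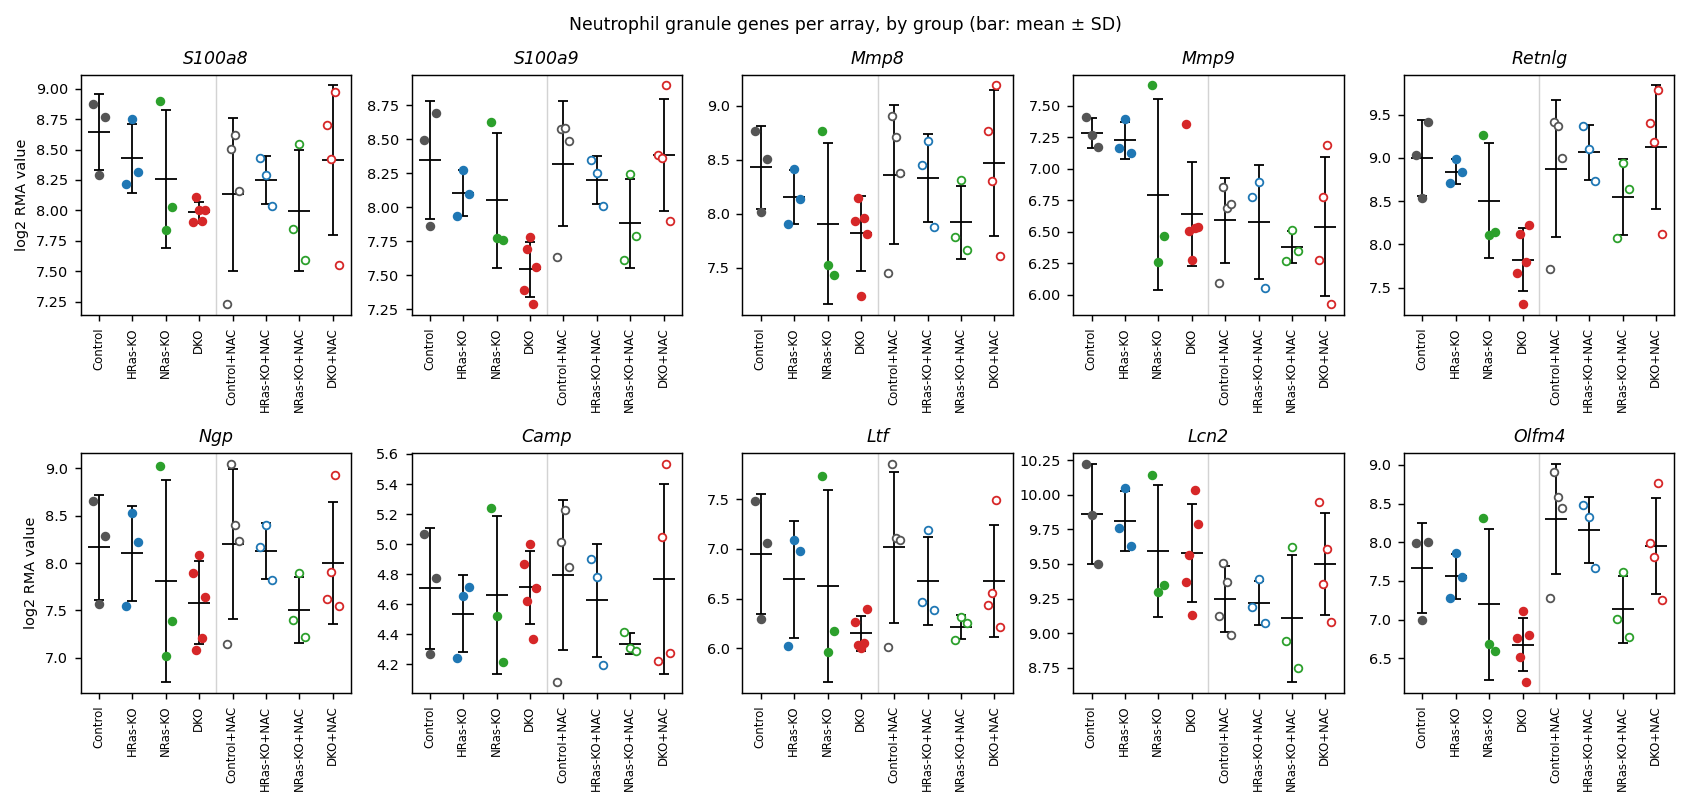
Log2 RMA value (vertical axis) of each of the 10 genes on each of the 28 arrays, by group, with filled points for untreated and open points for NAC arrays and bars for mean ± SD. For S100a8, S100a9 and Retnlg the 5 untreated DKO arrays sat below all 3 Control arrays, and in NRas-KO and Control+NAC a single array stood apart from the others of its group.

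Untreated DKO lungs read lower than Control lungs for 9 of the 10 genes, without any gene passing the test. S100a9 and S100a8, the subunits of calprotectin, a calcium-binding and metal-sequestering complex that makes up much of the neutrophil cytosol, stood lower by 0.80 and 0.66 log2 units, Retnlg by 1.17 and Olfm4 by 0.99. The median over the 10 was -0.65, where the median over all genes was 0.02. No gene of the 10 was called at an adjusted p under 0.05 (limma, Benjamini-Hochberg over all genes), in a comparison where 3.83% of all genes were called. At an unadjusted p under 0.05 the count was 6 of 10, against 15.7% of all genes.

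S100a9 read 8.49, 7.86 and 8.69 on the 3 Control arrays and 7.39, 7.69, 7.78, 7.29 and 7.56 on the 5 DKO arrays. Every DKO array lay under every Control array, although Control replicate 2 was within 0.08 of the highest DKO array. The difference was -0.80 ± 0.23 (SE; 95% interval -1.28 to -0.32), with an adjusted p of 0.051 in limma, which just missed the threshold.

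S100a8 read 8.88, 8.29 and 8.77 in Control and 7.90, 8.11, 8.0, 7.91 and 8.0 in DKO, a difference of -0.66 ± 0.29 (adjusted p = 0.25). The DKO arrays were close together, with an SD of 0.08 against 0.31 in Control, and did not overlap with them. Retnlg read 9.04, 8.54 and 9.42 in Control and 7.67, 8.12, 7.31, 7.80 and 8.22 in DKO. Those groups did not overlap either, and the mean was 2.25-fold lower in DKO (-1.17 ± 0.35, 95% interval -1.89 to -0.45, adjusted p = 0.058). S100a8, S100a9 and Retnlg were the only 3 of the 10 genes with all DKO arrays below all Control arrays, which held for 4.03% of all genes. Olfm4 read 8.0, 6.99 and 8.0 in Control and 6.76, 6.52, 7.11, 6.19 and 6.80 in DKO, where DKO replicate 3 lay above Control replicate 2 (-0.99 ± 0.37, adjusted p = 0.16).

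Among the proteases, Mmp8 (neutrophil collagenase) differed by -0.61 ± 0.33 (adjusted p = 0.39) and Mmp9 (gelatinase B) by -0.64 ± 0.28 (adjusted p = 0.23). Mmp9 read 7.41, 7.27 and 7.17 in Control and 7.35, 6.51, 6.28, 6.53 and 6.54 in DKO. Only DKO replicate 1 reached the Control range, and the other 4 lay below it. The antimicrobial and iron-binding genes differed by -0.80 ± 0.37 for Ltf (lactoferrin, adjusted p = 0.29), -0.59 ± 0.40 for Ngp (adjusted p = 0.54), -0.28 ± 0.23 for Lcn2 (lipocalin 2, which binds siderophores; adjusted p = 0.63) and 0.01 ± 0.27 for Camp (adjusted p = 0.99). Ltf was between 6.0 and 6.40 on all 5 DKO arrays, while Control spanned 6.29 to 7.49. For Lcn2 and Camp the DKO and Control ranges overlapped widely.

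How near these differences came to the threshold depended on the processing. S100a9 and Retnlg were called lower in DKO when the dimmest 40% of genes were left out, when arrays were normalized by quantiles again or when arrays were weighted by quality, and S100a9 also with trended moderation. Without Control replicate 2 or without DKO replicate 3, S100a9 was the 1 gene of the 10 called. Without Control replicate 1, 2 or 3 its difference was -0.73, -1.05 or -0.63. Shares of all genes called under these other settings were not recorded.

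Single knockouts gave smaller differences from Control than DKO did for every gene but Camp, all below 0 and none called. Camp differed by -0.17 in HRas-KO and -0.04 in NRas-KO, against 0.01 in DKO. In HRas-KO the 10 differences from Control ran from -0.28 to -0.05 with a median of -0.16, and in NRas-KO from -0.52 to -0.04 with a median of -0.37, where medians over all genes were 0.01 and 0.01. In both comparisons 0% of all genes were called in limma, so the lack of a call among the 10 says little. At an unadjusted p under 0.05 there were 0 of the 10 in either comparison. NRas-KO was split between animals: S100a9 read 8.62, 7.77 and 7.75, Retnlg 9.27, 8.11 and 8.14, and Ngp 9.02, 7.01 and 7.39. Replicate 1 was the highest array of its group for all 10 genes, and it reached or passed the highest Control array for 7 of them. The other pair read near DKO, with S100a9 at 7.77 and 7.75 against a DKO maximum of 7.78.

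DKO also stood below HRas-KO for 9 of 10 genes (median -0.53) and below NRas-KO for 9 of 10 (median -0.25). Against HRas-KO, S100a8, S100a9, Retnlg and Olfm4 had all DKO arrays below all HRas-KO arrays, 4 of 10 where 5.63% of all genes did so. The largest difference was Retnlg with -1.02 ± 0.35 (adjusted p = 0.092), from HRas-KO values of 8.71, 8.98 and 8.83. None of the 10 was called against HRas-KO or NRas-KO, where 5.63% and 4.95% of all genes were. Against HRas-KO, Retnlg was called with array weights or when only the arrays of the compared groups were fitted. These comparisons use the same DKO arrays as the one with Control, and so are not independent of it. Whether the double loss exceeded the sum of the single losses was tested as a difference of differences, and 0 of the 10 passed, against 0.225% of all genes.

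DKO lungs of the NAC arm read higher than untreated DKO lungs for 3 of the 10 genes that passed the test and for 8 of 10 by estimate. S100a9 rose by 0.84 (1.79-fold), Retnlg by 1.30 (2.46-fold) and Olfm4 by 1.28 (2.42-fold). That is 3 of 10 called higher where 5.74% of all genes were called higher, and 12.2% in either direction. The median over the 10 genes was 0.48, and over all genes 0.02.

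S100a9 read 8.38, 8.36, 8.89 and 7.89 on the 4 DKO+NAC arrays, all above the 5 untreated DKO arrays, of which the highest was 7.78. Its difference was 0.84 ± 0.21 (SE; 95% interval 0.40 to 1.28; limma, adjusted p = 0.0099). Retnlg read 9.40, 9.19, 9.78 and 8.12, against 7.31 to 8.22 in untreated DKO. DKO+NAC replicate 4 lay inside the untreated range and the other 3 stood well above it (1.30 ± 0.32, adjusted p = 0.0081). Olfm4 read 7.99, 7.81, 8.76 and 7.26, all above the untreated maximum of 7.11 (1.28 ± 0.34, adjusted p = 0.014). S100a9 and Olfm4 were the 2 genes of the 10 whose groups did not overlap, against 4.97% of all genes in that direction.

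S100a8 gave 0.43 ± 0.27 (adjusted p = 0.34) from values of 8.70, 8.42, 8.97 and 7.55. DKO+NAC replicate 4 was below every untreated DKO array, while the other 3 were above all of them. Mmp8 gave 0.65 ± 0.30 (adjusted p = 0.18), Ltf 0.53 ± 0.34 (adjusted p = 0.36), Ngp 0.42 ± 0.37 (adjusted p = 0.54) and Camp 0.06 ± 0.25 (adjusted p = 0.93). Mmp9 and Lcn2 had estimates of -0.10 ± 0.26 and -0.08 ± 0.21 (adjusted p = 0.86 for each).

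Single arrays bore on these calls. Without DKO+NAC replicate 3, the highest array for 9 of the 10 genes, Retnlg was the 1 gene still called (1.08), while S100a9 (0.67, adjusted p = 0.059) and Olfm4 (1.01, adjusted p = 0.077) were not. Without DKO+NAC replicate 4, the array with the higher Nras reading, 4 genes were called: Mmp8 joined them (0.94, adjusted p = 0.047), and the differences of S100a9, Retnlg and Olfm4 were 1.00, 1.63 and 1.51. Without DKO replicates 1 and 3 together, left out after the data were seen, Retnlg missed the threshold (1.07, adjusted p = 0.057) and the other 2 were called.

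**Figure D2:**
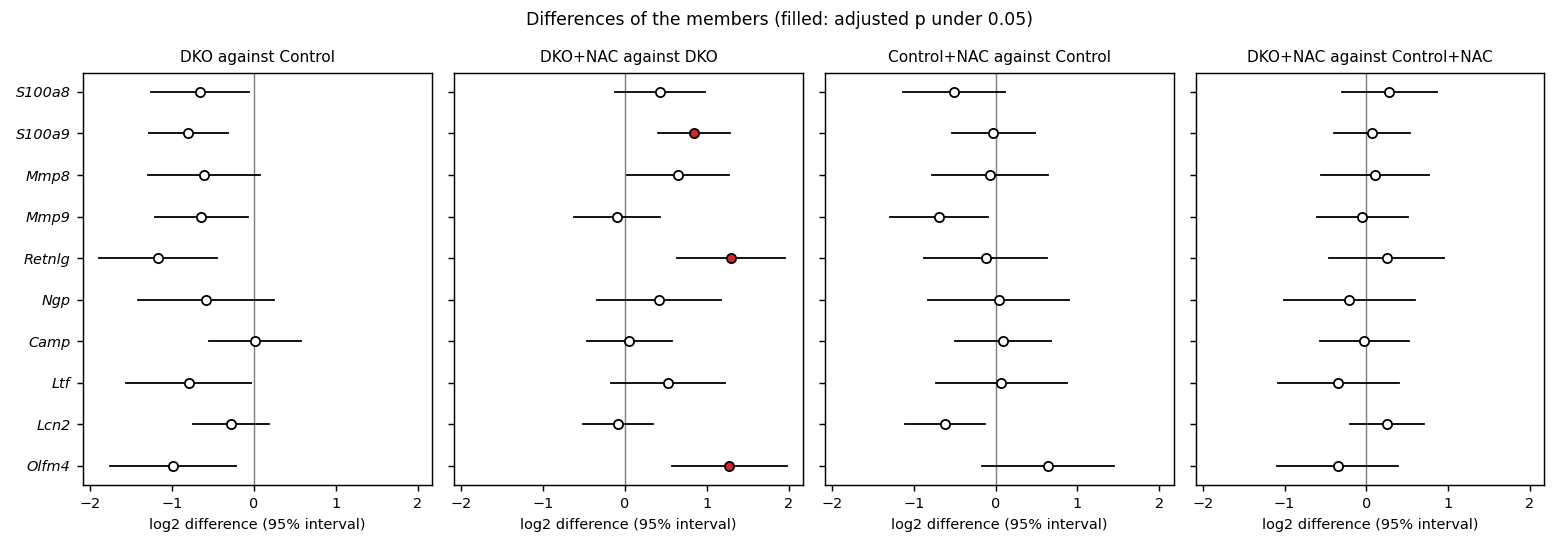
Log2 difference (horizontal axis) with its 95% interval for each of the 10 genes in 4 comparisons, filled red where the adjusted p is under 0.05. S100a9, Retnlg and Olfm4 are filled in DKO+NAC against DKO, and no point is filled in the other 3 panels.

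Within the NAC arm none of the 10 genes was called between DKO and Control lungs. DKO+NAC against Control+NAC had 5 estimates above 0 and 5 below, with a median of 0.02, and 0 of 10 called where 0% of all genes were. The lack of a call among the 10 therefore says little, as Nras itself was not called there (-0.58 ± 0.11, adjusted p = 0.12 in limma). Without DKO+NAC replicate 4 there were 7 above 0 and 3 below, with a median of 0.19 and still 0 called. Retnlg then differed by 0.58 in place of 0.25, S100a8 by 0.57 in place of 0.28 and Mmp8 by 0.39 in place of 0.11 (adjusted p = 0.62, 0.56 and 0.75 in limma). With all arrays the intervals were wide: -0.40 to 0.53 for S100a9, -0.45 to 0.95 for Retnlg and -1.09 to 0.39 for Olfm4, so differences of the size seen without NAC lie outside the first and second of these intervals and inside the third. Control+NAC replicate 1 was the lowest Control+NAC array for 9 of the 10 genes, with Retnlg at 7.72 against 9.42, 9.37 and 9.0 and Olfm4 at 7.28 against 8.91, 8.58 and 8.44.

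A direct test of whether the DKO difference changed with NAC compared DKO minus Control between the arms. Estimates were above 0 for 9 of 10 genes, with a median of 0.62 against -0.01 over all genes, and none was called, where 0.388% of all genes were. Retnlg gave 1.42 ± 0.49 (unadjusted p = 0.0074, adjusted p = 0.19 in limma), S100a8 0.94 ± 0.40 (adjusted p = 0.31) and S100a9 0.87 ± 0.33 (adjusted p = 0.23). Olfm4 gave 0.64 ± 0.52 (adjusted p = 0.64), since it also read higher by 0.64 ± 0.39 in Control+NAC than in Control (adjusted p = 0.30). Without DKO+NAC replicate 4 all 10 estimates were above 0 with a median of 0.83, and 0 were called where 0.347% of all genes were. Retnlg then gave 1.75 (adjusted p = 0.081), S100a8 1.23 (adjusted p = 0.14) and S100a9 1.03 (adjusted p = 0.15). This test and both DKO comparisons share their DKO arrays, so their values are set side by side and are not separate evidence.

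Mmp9 and Lcn2 had estimates below 0 with NAC in all 4 genotypes, none of them called, and in DKO these turned to 0.10 and 0.06 without DKO+NAC replicate 4. Mmp9 read 6.10, 6.85, 6.69 and 6.72 in Control+NAC, all below the lowest Control array at 7.17 (-0.70 ± 0.29, adjusted p = 0.12), and 6.78, 6.90 and 6.06 in HRas-KO+NAC, all below the lowest HRas-KO array at 7.12 (-0.65 ± 0.31, adjusted p = 0.19). Lcn2 read 9.12, 9.51, 9.37 and 8.98 in Control+NAC against 10.23, 9.86 and 9.50 in Control (-0.62 ± 0.24, adjusted p = 0.087), where Control+NAC replicate 2 overlapped Control replicate 3. In HRas-KO+NAC its values of 9.19, 9.39 and 9.07 all lay below the 9.76, 10.05 and 9.63 of HRas-KO (-0.59 ± 0.25, adjusted p = 0.14). In NRas-KO the NAC difference was -0.49 for Lcn2 and -0.42 for Mmp9, neither called.

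None of the 10 genes was called in the NAC comparison of Control, HRas-KO or NRas-KO, where 13.5%, 11.8% and 6.42% of all genes were. Groups that did not overlap, all lower with NAC, were Mmp9 in Control (1 of 10, against 10.1% of all genes) and Mmp9 and Lcn2 in HRas-KO (2 of 10, against 14.9%), shares that do not stand clear of all genes. Pglyrp1, a peptidoglycan-binding protein of neutrophil granules, fell with NAC by 0.87 in Control (adjusted p = 0.0054), 0.66 in HRas-KO (adjusted p = 0.048) and 0.77 in NRas-KO (adjusted p = 0.033). In DKO it differed by -0.18 (adjusted p = 0.59). It was the 1 gene of 19 other granule and cytosol genes called lower in each of those 3 comparisons, to be read against the shares over all genes above, and in NRas-KO Anxa1, the annexin A1 gene, was called higher (0.70, adjusted p = 0.048). In a fit of Control and Control+NAC alone, Lcn2 and Mmp9 were called lower, and Lcn2 was called without Control replicate 3. In HRas-KO, Lcn2 was called with array weights or when only the compared groups were fitted. Against Control+NAC, NRas-KO+NAC had all 10 estimates below 0 (median -0.44, and 0.00 over all genes), the largest for Olfm4 at -1.17 ± 0.39 (adjusted p = 0.30), from values of 7.01, 7.61 and 6.78. HRas-KO+NAC had 8 below 0 and a median of -0.05. No gene of the 22180 was called in either.

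By group mean, S100a9 was ordered from DKO (7.54 ± 0.20) through NRas-KO+NAC (7.88 ± 0.33), NRas-KO (8.05 ± 0.50), HRas-KO (8.10 ± 0.17), HRas-KO+NAC (8.20 ± 0.17), Control+NAC (8.32 ± 0.46) and Control (8.35 ± 0.43) to DKO+NAC (8.38 ± 0.41). Retnlg ran from DKO (7.82 ± 0.37) through NRas-KO (8.51 ± 0.66), NRas-KO+NAC (8.55 ± 0.44), HRas-KO (8.84 ± 0.14), Control+NAC (8.87 ± 0.79), Control (9.0 ± 0.44) and HRas-KO+NAC (9.06 ± 0.32) to DKO+NAC (9.12 ± 0.71). Olfm4 ran from DKO (6.68 ± 0.34) through NRas-KO+NAC (7.13 ± 0.43), NRas-KO (7.20 ± 0.97), HRas-KO (7.56 ± 0.29), Control (7.66 ± 0.58), DKO+NAC (7.95 ± 0.62) and HRas-KO+NAC (8.16 ± 0.43) to Control+NAC (8.30 ± 0.71). Neighbours in each order differed by less than the larger of their SDs, apart from DKO and the group next above it, where the gap was just over 1 SD for each of these genes. Without replicate 4 the DKO+NAC means were 8.55 ± 0.30 (n = 3) for S100a9 and 9.46 ± 0.30 for Retnlg, still the highest, and 8.19 ± 0.51 for Olfm4, which moved above HRas-KO+NAC. Untreated DKO was lowest for these genes, for S100a8 and for Mmp8 and Ltf, while NRas-KO+NAC was lowest for Ngp, Camp, Lcn2 and Mmp9.

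The genes varied together from animal to animal. After the group means were subtracted, the 45 pairs among the 10 genes had a median Pearson r of 0.76 over 28 arrays, with 39 pairs over 0.5. The closest pairs were S100a9 with Olfm4 (0.95), Ngp with Olfm4 (0.94) and Ngp with Ltf (0.92). S100a8 and S100a9 correlated at 0.91. Lcn2 was the loosest, with a median r of 0.45 to the other 9 and 0.19 to Camp. Without subtracting group means the median was 0.68. These coefficients describe arrays that share processing and, in part, code starts, and no test was run on them.

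**Figure D3:**
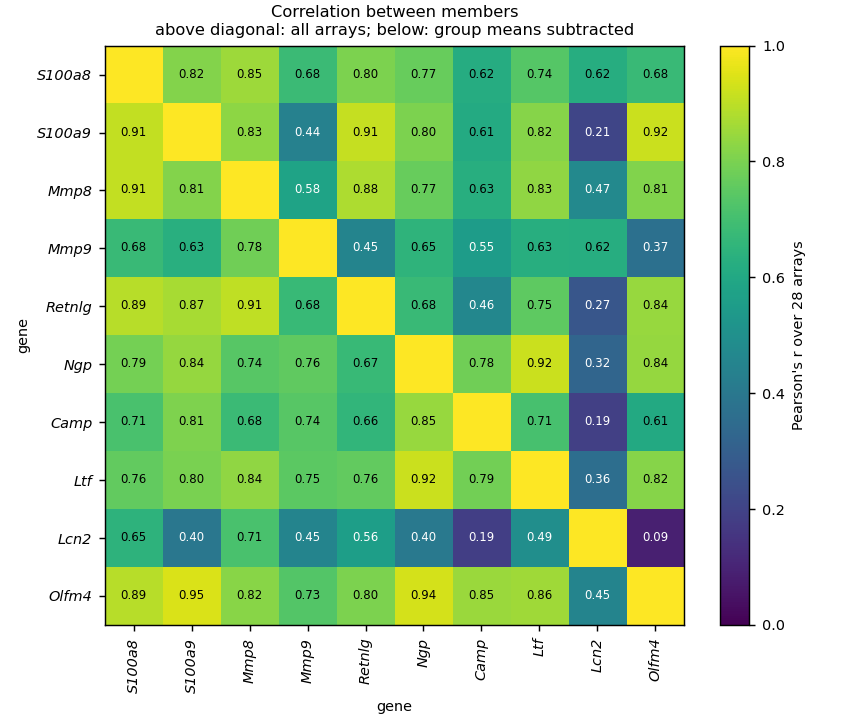
Pearson correlation between the 10 genes over 28 arrays (colour and number), above the diagonal for the deposited log2 values and below it after subtracting group means. Lcn2 has the weakest correlations, and S100a9 with Olfm4 the strongest after subtraction at 0.95.

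The mean of the 10 genes, each relative to its own mean over all arrays, followed the code start in part of the untreated arm. On the 3 arrays of code start C118 it was 0.59 in Control replicate 1, 0.39 in HRas-KO replicate 2 and 0.76 in NRas-KO replicate 1, all high. Within H058 it was -0.12 and 0.41 in Control, 0.15 in HRas-KO and -0.52 and -0.46 in NRas-KO. NRas-KO therefore lay below Control within H058 and above it within C118. For S100a9 the C118 arrays read 8.49 in Control, 8.27 in HRas-KO and 8.62 in NRas-KO, and the H058 arrays read 7.86 and 8.69 in Control, 8.09 in HRas-KO and 7.77 and 7.75 in NRas-KO.

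All 5 DKO arrays lay between -0.48 and -0.27 over their 3 code starts. In the NAC arm, T445 held Control+NAC arrays at -0.64, 0.65 and 0.45 and a DKO+NAC array at 0.82, and T453 held arrays of all 4 genotypes, from -0.48 in NRas-KO+NAC and -0.47 in DKO+NAC to 0.32 in HRas-KO+NAC. Within T445 the DKO+NAC array was above every Control+NAC array and within T453 it was below the Control+NAC array, but that array is replicate 4, whose Nras reading lay inside the untreated Control range. Leaving it out leaves no DKO+NAC array in T453. A fixed block for the code start could be fitted for the single knockouts against Control and the 3 genotypes against Control+NAC, and 0 of the 10 genes were called in limma under it. In each of these comparisons 0% of all genes were called without the block, so the lack of a call under it says little. Without the C118 arrays, left out after the data were seen, the DKO difference from Control was -0.73 for S100a9 and -1.15 for Retnlg, neither called.

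**Figure D4:**
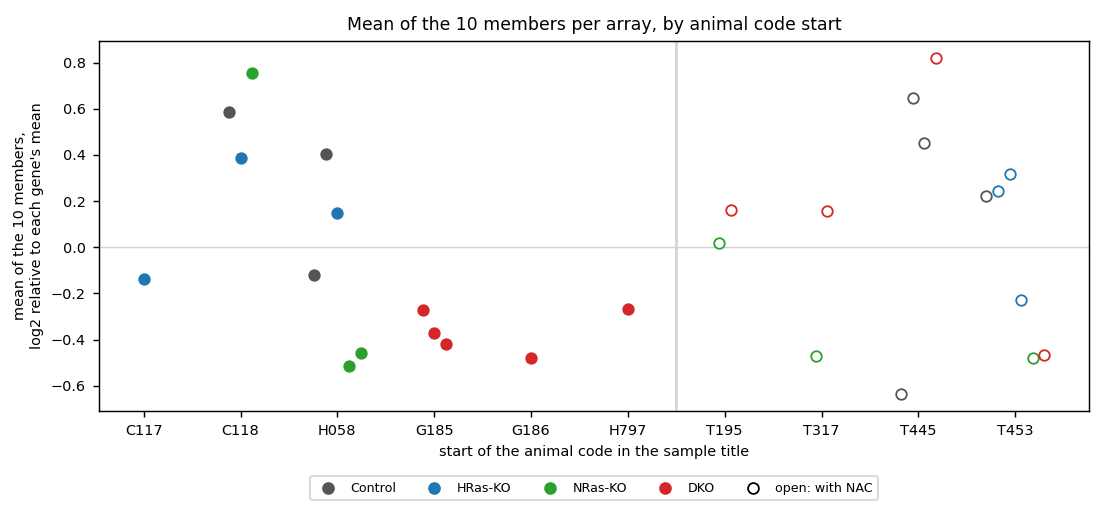
Mean of the 10 genes per array in log2 units relative to each gene's mean over 28 arrays (vertical axis), by the start of the animal code (horizontal axis), with untreated arrays filled and NAC arrays open. The 3 C118 arrays of 3 genotypes lie at 0.39 to 0.76, and the 5 untreated DKO arrays, from 3 code starts of their own, at -0.48 to -0.27.

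Other genes of neutrophils were read from lists. Of 19 other granule and cytosol genes 0 were called in DKO against Control in limma (median -0.26), and the list mean correlated with the mean of the 10 genes at 0.91 over 28 arrays and at 0.96 after subtracting group means. With NAC in DKO 1 of 19 rose, Padi4, the enzyme that citrullinates histones (0.37 ± 0.11, adjusted p = 0.027), and the list median was 0.17. Padi4 was not called when DKO+NAC replicate 4 was left out (0.32, adjusted p = 0.078), and Stfa2l1 and Stfa3, both stefins, were (1.00 and 1.33, adjusted p = 0.027 and 0.029). Ly6g, the surface protein that defines mouse neutrophils, had group means of 4.52 to 5.27, near or under the array medians of 5.25 to 5.41. At that low level it differed by -0.44 ± 0.27 in DKO against Control (adjusted p = 0.48).

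Of 19 neutrophil receptors 1 fell in DKO, the orphan receptor Mrgpra2a (-0.90 ± 0.25, adjusted p = 0.042), and the list median was -0.24. In DKO+NAC against DKO 2 of 19 rose: Fpr2, a formyl peptide receptor (1.07 ± 0.29, adjusted p = 0.013), and Trem3, an activating receptor of myeloid cells (0.50 ± 0.12, adjusted p = 0.0060). Both were still called with DKO+NAC replicate 4 left out (1.24 and 0.45), and Itgam was then called too. Cxcr2, the chemokine receptor that draws neutrophils from marrow, differed by -0.37 ± 0.32 and 0.23 ± 0.29 in those comparisons (adjusted p = 0.65 and 0.68), and Csf3r, the G-CSF receptor, by -0.25 and 0.06. Of 5 subunits of the phagocyte oxidase none was called in either comparison (medians -0.29 and 0.35). Shares called in these lists were near those over all genes, 3.83% and 12.2%.

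Primary granule genes did not follow the 10 genes. Elane, neutrophil elastase, averaged 5.51 ± 0.21 (n = 5) in DKO, 5.13 ± 0.15 (n = 3) in Control, 5.06 ± 0.17 in HRas-KO and 5.10 ± 0.15 in NRas-KO. It was higher in DKO than in HRas-KO (0.46 ± 0.11, adjusted p = 0.017) and NRas-KO (0.41 ± 0.11, adjusted p = 0.033), and the difference from Control was 0.39 ± 0.11 (adjusted p = 0.055). In DKO+NAC Elane fell by 0.40 ± 0.11 against DKO (adjusted p = 0.011), the 1 of 5 genes called, and without replicate 4 it differed by -0.48 (adjusted p = 0.0056) and Prtn3, proteinase 3, was called lower too. Of all genes 5.63% and 4.95% were called in DKO against HRas-KO and NRas-KO, and 6.46% were called lower in DKO+NAC against DKO. Without replicate 4, 2553 of all 22180 genes were called there in either direction. A list of 5 genes is too short to set its count apart from these shares. Mpo, myeloperoxidase, differed by 0.41 ± 0.16 in DKO against Control (adjusted p = 0.18) and by -0.35 ± 0.15 in DKO+NAC against DKO (adjusted p = 0.14). Both probe sets lay near the array medians. The mean of the 5 primary granule genes was 0.10 to 0.26 on the DKO arrays and -0.13 to 0.08 on the Control arrays. Its correlation with the mean of the 10 genes was -0.20 over 28 arrays and 0.13 after subtracting group means.

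**Figure D5:**
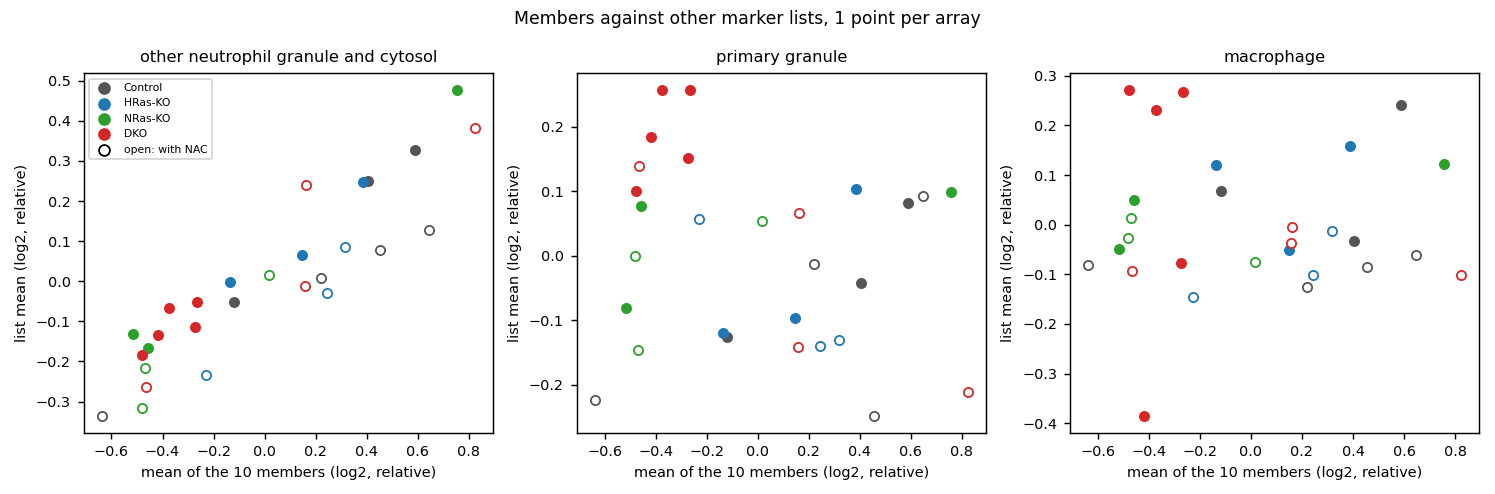
Mean of 3 marker lists per array (vertical axes) against the mean of the 10 neutrophil genes (horizontal axes), all in log2 units relative to gene means, with untreated arrays filled and NAC arrays open. Other granule and cytosol genes lie along a line (r = 0.91), while primary granule genes (r = -0.20) and macrophage genes (r = 0.03) do not, and the 5 untreated DKO arrays lie at 0.10 to 0.26 for primary granule genes.

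Genes that regulate, attract or partner with neutrophils showed few calls. Of 9 transcription factors of granulocyte development 0 were called in DKO against Control, and Myb, a progenitor factor, fell in DKO+NAC against DKO (-0.28 ± 0.09, adjusted p = 0.033) but was not called without replicate 4 (-0.20, adjusted p = 0.15). Of 18 chemokines, cytokines and adhesion molecules of recruitment 0 were called in either comparison (medians -0.02 and 0.06). Among 14 receptors for these proteins and inhibitors of their proteases, 1 fell in DKO: Ly96, the partner of the S100A8 and S100A9 receptor TLR4, which fell by 1.35 ± 0.29 (adjusted p = 0.0073), from 7.44 ± 0.45 (n = 3) to 6.09 ± 0.33 (n = 5). Ly96 was lower in DKO than in HRas-KO (-1.66) and NRas-KO (-1.50) too. With NAC it also fell in Control (-0.98), HRas-KO (-1.18) and NRas-KO (-1.05), with adjusted p of 0.029, 0.015 and 0.046. Of all genes 13.5%, 11.8% and 6.42% were called in those comparisons. In DKO+NAC against DKO Ly96 went the other way, by 0.59 ± 0.26, and was not called (adjusted p = 0.15 in limma). Tlr4 itself differed by -0.02 in DKO and rose in DKO+NAC against DKO (0.57 ± 0.15, adjusted p = 0.0096; 0.70 without replicate 4), the 1 of 14 called. Over all genes 3.83% were called in DKO against Control and 12.2% in DKO+NAC against DKO.

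Markers of other cells are given beside these groups. Of all genes 3.83% were called in DKO against Control and 12.2% in DKO+NAC against DKO, with 6.46% called lower there. Of 9 measured erythroid genes 2 rose in DKO against Control, Hbb-y (1.15 ± 0.28, adjusted p = 0.019) and Ermap (0.82 ± 0.23, adjusted p = 0.044), and 5 fell in DKO+NAC against DKO, with the list mean at 0.14 to 0.77 on DKO arrays, -0.27 to 0.14 on Control arrays and -0.06 to 0.07 on DKO+NAC arrays. Macrophage genes had 0 of 10 called in DKO against Control, with list means of -0.39 to 0.27 in DKO and -0.03 to 0.24 in Control. In DKO+NAC against DKO 3 of 10 fell, Cd68, C1qb and C1qc (-0.67, -0.69 and -0.52), with list means of -0.10 to 0.00 in DKO+NAC. Of 7 monocyte genes 1 fell in DKO, Ace (-0.35), and in DKO+NAC against DKO Ccr2 rose by 0.49 and Fn1 fell by 0.48. The list means were -0.30 to 0.07 in DKO, 0.01 to 0.24 in Control and -0.37 to 0.30 in DKO+NAC. With DKO+NAC replicate 4 left out the counts called lower were 3 of 9 erythroid and 2 of 10 macrophage genes, and 3 of 7 monocyte genes were called higher and 1 lower.

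Interferon-induced genes, chosen with their earlier result known, had 7 of 10 called lower in DKO than in Control, where 3.83% of all genes were called. In DKO+NAC against DKO 2 of 10 were called higher, where 5.74% of all genes were. These were Bst2 (0.93, adjusted p = 0.016 in limma) and Rtp4 (0.64, adjusted p = 0.046). Without DKO+NAC replicate 4 the count called higher was 4 of 10. The list mean correlated with the mean of the 10 neutrophil genes at 0.29 over 28 arrays and at 0.04 after subtracting group means. Liver genes had 0 of 7 called in either comparison, with list means of 0.32 to 1.91 in DKO and -0.33 to 1.20 in Control. Skeletal muscle genes had 0 of 9 called in DKO against Control and 3 of 9 lower in DKO+NAC against DKO, with list means of -0.18 to 1.53 in DKO, -0.13 to 0.74 in Control and -0.46 to -0.20 in DKO+NAC. Keratinocyte genes, a tissue that also makes S100A8 and S100A9, had list means of -0.02 to 1.59 in NRas-KO and at most 0.03 in every other group, and correlated with the 10 genes at -0.33, and at -0.51 after subtracting group means. The part of these cells in the neutrophil results was not tested.

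Outside the 10 genes, the highest correlations with their mean over 28 arrays belonged to Ifitm6 (0.87), Plbd1 (0.86), Stfa1 (0.83), Itgam (0.82), Stfa3 (0.81), Stfa2l1 (0.81), Trem1 (0.80), Cd177 (0.79), Slfn4 (0.76) and Ncf4 (0.75). After subtracting group means the order was Stfa1 (0.91), Stfa2l1 (0.90), Ifitm6 (0.88), Mrgpra2a (0.85), Stfa3 (0.83), Plbd1 (0.81), Itgam (0.81), Dhrs9 (0.79), Cstdc4 (0.78) and Coro1a (0.78), and 6 of 10 were in both. The first 10 were chosen over arrays that include the group differences, so their differences between groups are in part fixed by that choice and are given as a description. Slfn4, a schlafen family member outside the second 10, differed by -1.39 ± 0.35 in DKO against Control and by 1.03 ± 0.32 in DKO+NAC against DKO. Itgam, the integrin subunit CD11b, gave -0.77 ± 0.24 and 0.63 ± 0.22 in those comparisons, and Stfa2l1 gave -1.11 ± 0.33 and 0.69 ± 0.30.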

How the data were processed

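Whole lungs of 28 newborn mice were measured on 1-colour whole-transcript arrays, 1 animal to an array. The authors deposited log2 values, 1 per probe set and array, and per the submitters' processing notes RMA and affy were used. Their versions are not given in the sources used here. RMA corrects background, normalizes arrays to each other by quantiles and summarises probes, so a value is relative to the other arrays and small differences of dim genes are compressed. The table held 41345 probe sets: 23521 had 1 gene symbol in the platform annotation, 1814 had several and 16010 had none listed. The brightest of a gene's rows stood for it, giving 22180 genes.

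A model with 1 mean for each of the 8 groups was fitted to all arrays in limma 3.58.1 under R 4.3.3 (lmFit and eBayes, 20 residual and 5.95 prior degrees of freedom). A gene was called where its p, adjusted over all 22180 genes by Benjamini-Hochberg, was under 0.05. All adjusted and unadjusted p-values are two-sided and from this limma fit or from the named alternative. The scripts were tested on simulated data. The precision is limited by the number of arrays. The p-values reflect the spread between animals within groups, as 1 estimate per gene shared by the 8 groups and moderated over genes. They do not measure the spread between code starts, which animals of a group often share.

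The 10 genes, the 23 gene lists (223 of 237 written genes matched) and the comparisons were chosen with earlier results of these data known. Named were the 10 genes, Nras, at most the 4 called genes with the smallest p in each list, and the 10 genes most correlated with the mean of the 10. Ly6g, Cxcr2, Csf3r and Mpo, and the uncalled values of Elane, Tlr4 and Pglyrp1, were added after their values were seen. Promoter sequences are RefSeq's, on GRCm38.p6. Shared replicate numbers were not taken as pairs: deviations from group means correlated at 0.021 on average over 37 pairs of equal number, with 13 over 0.1. Arrays of 1 code start were more alike, and code start was tried as a random and a fixed block. Alternatives covered the row for a gene, the rows tested, a filter on dim genes, normalization, moderation, array weights, the samples fitted, blocks, a 1.5-fold minimum and each array left out. The highest correlation between any 2 arrays was 0.9933.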

Additional observations from a re-analysis of the deposited data

Results flagged for a closer look

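In Control+NAC, S100a9 read 7.63 on replicate 1, the lowest of 4 arrays, far below the nearest other at 8.49 in a group that reached 8.58. In untreated DKO, Mmp9 read 7.35 on replicate 1, the highest of 5 arrays, against 6.54 on the nearest other and a group minimum of 6.28. Both stood apart by the gap to the nearest array relative to the range of the group. Of 30 sets of values tested in groups of 4 or 5 arrays, 2 stood apart in this way, and chance gives about 1 in 20. Control+NAC replicate 1 was also the lowest Control+NAC array for Retnlg (7.72), Olfm4 (7.28) and S100a8 (7.23). What set these arrays apart was not tested.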

How the results depend on the processing

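Counts of the 10 genes called, at an adjusted p under 0.05 in limma, were recomputed for 14 comparisons. Of 744 recomputed gene values 0 reversed after a call, 3 lost a call and 17 gained one, and 24 estimates that were never called changed sign. For DKO against Control, where the count was 0, it was 2 (S100a9 and Retnlg, lower) with the dimmest 40% of genes left out, with quantile normalization again and with array weights, and 1 (S100a9) with trended moderation, and it ranged from 0 to 1 with single arrays left out. For Control+NAC against Control it was 2 (Lcn2 and Mmp9, lower) when only those groups were fitted, and 0 to 1 with single arrays left out. DKO against HRas-KO (Retnlg) and HRas-KO+NAC against HRas-KO (Lcn2) each gave 1 with array weights and 1 when only those groups were fitted. DKO+NAC against DKO gave 3 under every other setting run, apart from 2 without DKO replicates 1 and 3, and 1 to 4 with single arrays left out (1 without DKO+NAC replicate 3, 4 without replicate 4). There the adjusted p ranged from 0.0034 to 0.059 for S100a9, 0.0015 to 0.057 for Retnlg and 0.0065 to 0.077 for Olfm4. In DKO against Control it ranged from 0.034 to 0.23 for S100a9 and from 0.040 to 0.23 for Retnlg. Why these counts moved was not tested, apart from the dim-gene filter, which tests fewer genes and drops Camp. Shares of all genes called under these settings were not recorded, apart from the fit without DKO+NAC replicate 4. A call gained or lost among the 10 can therefore not be set against calls over all genes.

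With the replicate number as a block 3 genes were called in DKO+NAC against DKO and 0 in every other comparison, as without it, and the numbers did not pair the arrays. The code start as a fixed block could be fitted in 5 of the 14 comparisons. Groups of 3 to 5 arrays limit the precision of every comparison here. Genotype and code start in untreated DKO, and NAC and code start in all groups, cannot be told apart.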
